A study of Mus musculus with 4 samples.

Results

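The 10 genes described here encode the best-known inducible brakes on mitogen-activated protein (MAP) kinase signalling in T cells: the dual-specificity phosphatase genes Dusp1, Dusp2, Dusp4, Dusp5, Dusp6 and Dusp10, the Sprouty genes Spry1 and Spry2, and the Spred genes Spred1 and Spred2. They were chosen by name, and all 10 were found among the 19555 rows of the expression tables. Spleen and lymph node naive CD4+ T cells of C57BL/6 mice were activated and grown for 3 days with IL-6 and TGF-β1, which together steer T helper cells to the Th17 fate, and total RNA was sequenced. The 4 groups, with 1 library each, were Smad4 KO cells at the fever-range temperature of 39.5 °C, Smad4 KO cells at 37 °C, wild-type (WT) cells at 39.5 °C and WT cells at 37 °C. Smad4 encodes the common SMAD protein of the TGF-β family, the partner of the receptor-phosphorylated SMADs. All 4 groups received the same cytokines. The sources used here do not say how Smad4 was deleted, in which cells, or how many mice were pooled.

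T cell receptor and cytokine receptor signals pass through RAS to the kinases RAF, MEK and ERK, and in parallel to the stress-activated kinases p38 and JNK. DUSP proteins end these signals by removing phosphates from the MAP kinases themselves, whereas Sprouty and Spred proteins act further up and restrain the step from receptor to RAS and RAF. Many of these genes are themselves switched on by MAP kinase activity, so that their mRNA is part of a negative feedback loop.

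Smad4 itself stood higher, not lower, with the KO label. In the additive limma fit described below, Smad4 rose by 0.54 on the log2(RPKM + 1) scale (SE 0.12, adjusted p = 0.045). It was at 21.3 and 20.7 RPKM (sequence reads scaled to exon length and to library size) in libraries labelled Smad4 KO (39.5 and 37 °C), against 14.2 and 14.0 RPKM in the WT libraries at 39.5 and 37 °C. A total over all exons does not show whether some exons are missing, so every genotype direction below is that of the label. The 4 libraries held between 18048961 and 18475245 reads, recovered as whole numbers from the RPKM values. T cell markers were high in all libraries, with a summed level of 625 and 621 RPKM in libraries labelled Smad4 KO (39.5 and 37 °C) and 596 and 544 RPKM in the WT libraries for the 5 listed genes. Of 6 Th17 markers 5 had a mean of at least 1 RPKM, and Il22 stayed at or below 0.467 RPKM in every library. The Th17 markers moved with the label, with sums of 415 and 264 RPKM in libraries labelled Smad4 KO (39.5 and 37 °C), against 2102 and 700.02 RPKM in the WT libraries. The myeloid markers with a row (3 of 5 listed) summed to 0.304 and 0.642 RPKM with the KO label and to 1.54 and 1.07 RPKM in WT. The CD8 and NK markers (2 of 5) summed to between 2.90 and 4.05 RPKM, and the B cell marker Cd79a reached at most 0.485 RPKM. What part these differences in cell make-up have in the results below was not tested. In bulk RNA, fewer cells of a type and less RNA per cell cannot be told apart.

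The promoters of 3 of the genes are shown first, because the results turn on them: Spry1, which differed with both temperature and label, Dusp5, which had the largest rise with the label, and Dusp1, whose temperature ratio had opposite directions in the 2 genotypes. Each covers 250 bases before and 50 bases after the RefSeq transcript start, 5′ to 3′ on the gene's strand. Entries were found for Dusp1, Dusp2, Dusp5, Dusp6, Dusp10, Spry1, Spry2, Spred1 and Spred2; Dusp4 had none. Capitals mark motif matches.
Spry1, chr3:37639697-37639996, plus strand, GRCm38.p6: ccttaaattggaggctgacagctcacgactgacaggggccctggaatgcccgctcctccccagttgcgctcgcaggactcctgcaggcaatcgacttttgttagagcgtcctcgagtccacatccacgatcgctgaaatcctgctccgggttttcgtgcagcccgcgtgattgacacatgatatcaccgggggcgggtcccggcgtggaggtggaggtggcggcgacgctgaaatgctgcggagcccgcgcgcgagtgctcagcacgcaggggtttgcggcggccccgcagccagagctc
Dusp5, chr19:53528895-53529194, plus strand, GRCm38.p6: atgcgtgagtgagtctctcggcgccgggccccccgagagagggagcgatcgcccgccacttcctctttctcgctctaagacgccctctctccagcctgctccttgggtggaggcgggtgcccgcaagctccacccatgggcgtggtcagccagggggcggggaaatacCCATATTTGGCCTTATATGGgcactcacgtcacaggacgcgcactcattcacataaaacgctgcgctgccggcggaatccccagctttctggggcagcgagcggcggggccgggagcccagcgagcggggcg
Dusp1, chr17:26508423-26508722, minus strand, GRCm38.p6: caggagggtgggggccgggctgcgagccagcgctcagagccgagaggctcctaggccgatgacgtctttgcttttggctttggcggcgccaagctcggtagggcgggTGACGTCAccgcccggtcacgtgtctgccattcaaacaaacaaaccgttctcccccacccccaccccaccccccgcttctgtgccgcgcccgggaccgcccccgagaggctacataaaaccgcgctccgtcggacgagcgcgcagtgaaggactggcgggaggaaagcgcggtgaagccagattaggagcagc

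The motifs searched were TGACGTCA, bound by CREB and ATF factors, TGANTCA, bound by AP-1, the CArG box, bound by the serum response factor SRF that ERK signalling activates through its ETS partners, GAANNTTC, the core of a heat shock element, and GTCTAGAC, a palindrome bound by SMAD proteins. Each reads the same on both strands, and no match overlapped another. In the Dusp5 promoter, 2 CArG boxes lie end to end, CCATATTTGG starting 82 bases and CCTTATATGG starting 72 bases before the transcript start. Of 32851 promoters of this length, 1.63% held at least 1 CArG box. The Dusp1 promoter held 1 TGACGTCA, 143 bases before the start, as did 1.79% of all promoters. The Spry1 window held none of the 5 motifs, nor did those of the other 6 genes with an entry. TGANTCA was present in 7.81%, GAANNTTC in 7.86% and GTCTAGAC in 0.213% of all promoters.

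The nuclear phosphatase gene Dusp4 was on average the most abundant of the feedback genes, at a mean of 82.2 RPKM, and the most constant. RPKM is a level per length of exon, so genes can be compared on it. The summed level of the 10 genes was 335 and 355 RPKM in libraries labelled Smad4 KO (39.5 and 37 °C), against 314 and 266 RPKM in the WT libraries at 39.5 and 37 °C. Dusp4, which encodes a phosphatase of ERK, JNK and p38, stood at 85.2 and 81.4 RPKM with the KO label and at 81.2 and 80.9 RPKM in WT, in the same order of temperatures. Its highest level was 1.05 times its lowest, the narrowest range among the 10 genes. Spry1 had the widest, with a highest level 4.37 times its lowest. The order of the genes by level also differed between libraries. Dusp4 led in 3 libraries, while Dusp2 led, ahead of Dusp4, in the 37 °C library labelled Smad4 KO. Spry1 held the 5th and 6th place in libraries labelled Smad4 KO (39.5 and 37 °C), and the 2nd and 4th place in WT at 39.5 and 37 °C. Among neighbours in this order, exact 95% Poisson intervals of the reads overlapped for Dusp6 and Dusp5 in the hot library labelled Smad4 KO and for Spred1 and Dusp1 in that at 37 °C. They overlapped for Dusp4 and Spry1, for Dusp2 and Dusp6 and for Dusp1 and Dusp10 in WT at 39.5 °C, and for Dusp10 and Dusp1 in WT at 37 °C. These intervals cover counting error only. Spry2 was last in every library, with 27 and 29 reads in libraries labelled Smad4 KO (39.5 and 37 °C) and 42 and 19 reads in WT.

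**Figure D1:**
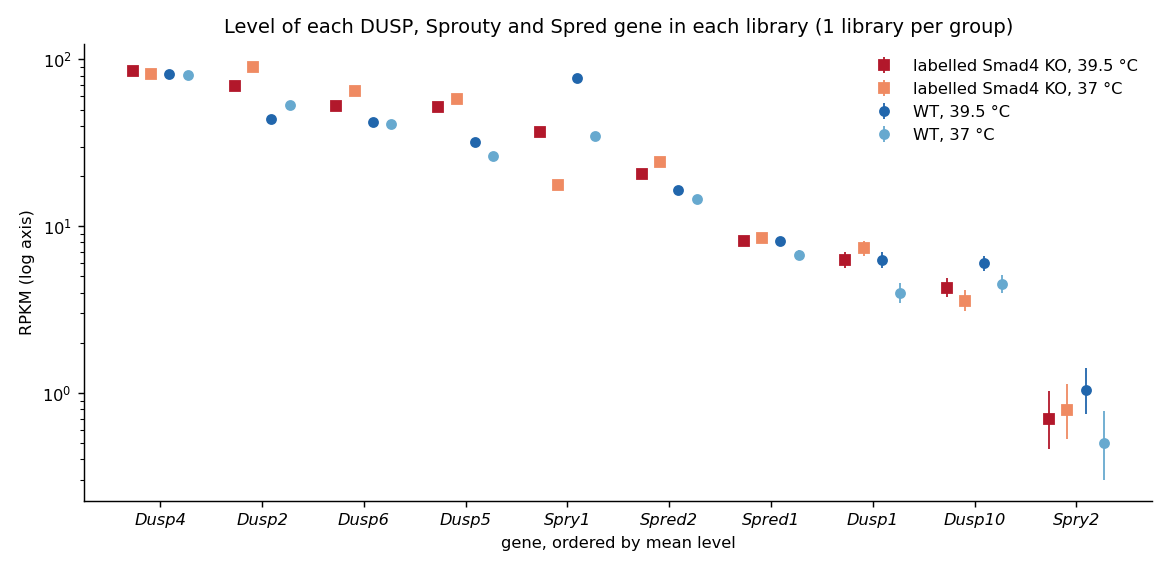
Level of each gene in RPKM (log axis) in each of the 4 libraries, genes ordered by their mean; squares are the libraries labelled Smad4 KO, circles are WT, and bars are exact 95% Poisson intervals of the reads, which cover counting error only. Dusp4 lies between 80.9 and 85.2 RPKM in all libraries, while Spry1 runs between 17.7 and 77.2 RPKM.

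Spry1 was the member that differed most with temperature. Its protein is an inhibitor of the RAS and ERK pathway that activated T cells induce. It stood at 36.8 RPKM (1968 reads) and 17.7 RPKM (906 reads) in libraries labelled Smad4 KO (39.5 and 37 °C), against 77.2 RPKM (4331 reads) in the WT library at 39.5 °C and 34.6 RPKM (1834 reads) in that at 37 °C. Both libraries at 39.5 °C lay above both at 37 °C, although the 36.8 RPKM of the hot library labelled Smad4 KO was close to the 34.6 RPKM of WT at 37 °C. The ratio of 39.5 to 37 °C was 2.08 (95% interval 1.92 to 2.25) with the KO label and 2.23 (2.11 to 2.35) in WT. With 1 library per group such a ratio has no replicate check, and its exact Clopper-Pearson interval, conditional on the summed reads of the pair, covers counting error only. PCR reads are not independent molecules, which such intervals do not take in.

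The temperature ratios were close in both genotypes, and so were the ratios between the labels. Between labels, the Spry1 level of the library labelled Smad4 KO divided by that of WT was 0.477 (0.452 to 0.503) at 39.5 °C and 0.510 (0.471 to 0.553) at 37 °C. Dividing the temperature ratio with the KO label by that in WT gave 0.934, with a counting interval of 0.849 to 1.03. In a limma fit of all 4 libraries with temperature and genotype label as additive terms, Spry1 fell with the KO label by 0.99 on the log2(RPKM + 1) scale (SE 0.12, adjusted p = 0.016). Of the 13715 rows averaging at least 1 RPKM, 103 (0.751%) had a more negative label term. The temperature term of Spry1 was 1.07 (SE 0.12, unadjusted p = 0.00019, adjusted p = 0.070), higher at 39.5 °C in both genotypes, and did not pass the adjusted threshold of 0.05. A larger positive temperature term was found for 76 rows (0.554%). That term did pass with a minimum mean of 5 RPKM, with median-of-ratios scaling and with limma-voom on the recovered reads (adjusted p = 0.0042, 0.033 and 0.011). A transcript annotated on the other strand, Gm42922, overlaps Spry1, and the sources used here do not say whether the counting used strand.

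Spry2, the close relative of Spry1, was barely expressed. It was at 0.703 and 0.788 RPKM in libraries labelled Smad4 KO (39.5 and 37 °C), and at 1.04 and 0.4998 RPKM in the WT libraries. The WT ratio of 39.5 to 37 °C was 2.09, with a wide interval of 1.19 to 3.80, and with the KO label it was 0.892 (0.508 to 1.56). Spry2 lay under the minimum mean of 1 RPKM, so that 9 of the 10 genes entered the tests across all rows.

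**Figure D2:**
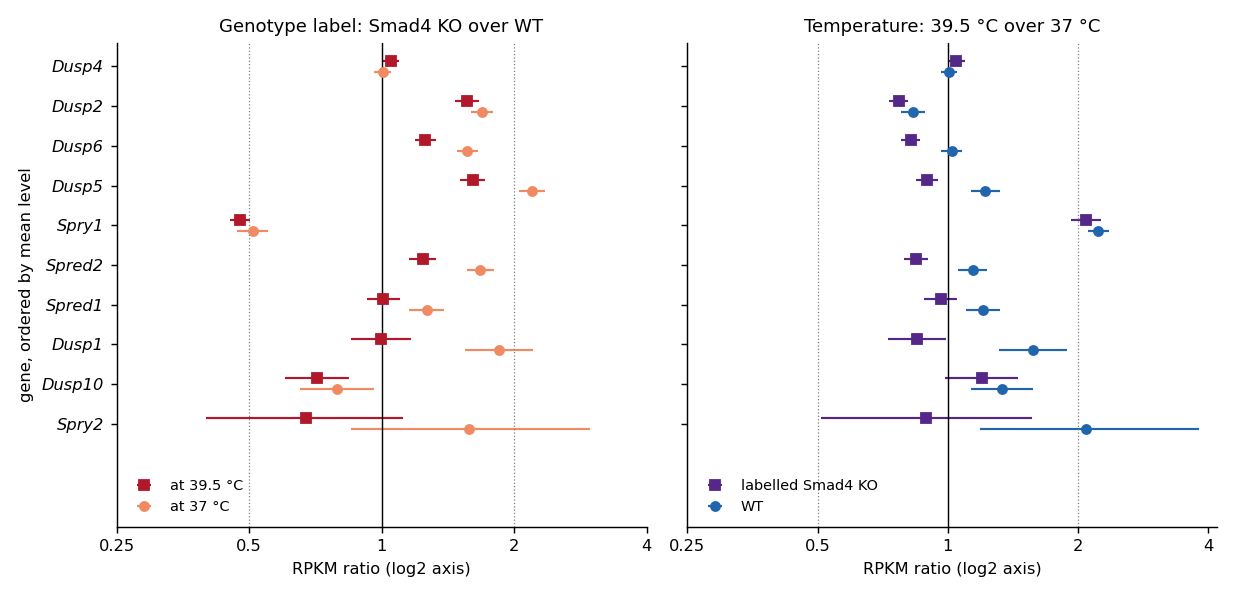
RPKM ratios of each gene (log2 axis) between pairs of libraries, the label comparison on the left (squares at 39.5 °C, circles at 37 °C) and the temperature comparison on the right (squares labelled Smad4 KO, circles WT); bars are exact 95% Clopper-Pearson intervals, for counting error only, and dotted lines mark 2-fold. Spry1 is the gene near 2-fold in both panels, with temperature ratios of 2.08 and 2.23 and label ratios of 0.477 and 0.510.

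The nuclear phosphatase genes Dusp5 and Dusp2 rose with the KO label. Dusp5 encodes a phosphatase that acts on ERK. It stood at 51.5 and 57.6 RPKM in libraries labelled Smad4 KO (39.5 and 37 °C), against 32.0 and 26.2 RPKM in the WT libraries at 39.5 and 37 °C. Both libraries with the KO label lay above both WT libraries. The ratio to WT was 1.61 (1.51 to 1.72) at 39.5 °C and 2.20 (2.05 to 2.35) at 37 °C. The label term of the limma fit was 0.89 (SE 0.15, adjusted p = 0.026), with a larger positive term in 591 rows (4.31%).

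Dusp2 encodes a phosphatase of ERK and p38 that was first known from activated lymphocytes. Its levels were 68.9 and 89.7 RPKM in libraries labelled Smad4 KO (39.5 and 37 °C), and 44.1 and 53.1 RPKM in WT at 39.5 and 37 °C, with no overlap between the labels. Within each genotype the library at 39.5 °C was the lower. The ratio to WT was 1.56 (1.47 to 1.66) at 39.5 °C and 1.69 (1.59 to 1.79) at 37 °C, and the label term was 0.69 (SE 0.12, adjusted p = 0.027). The ratio of 39.5 to 37 °C was 0.769 (0.729 to 0.810) with the KO label and 0.831 (0.778 to 0.887) in WT. Its temperature term of −0.32 (SE 0.12, limma adjusted p = 0.32) did not pass.

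Dusp6 and Spred2 lay in the same direction and did not pass. Dusp6, whose product is a cytoplasmic phosphatase of ERK, was at 52.8 and 64.4 RPKM in libraries labelled Smad4 KO (39.5 and 37 °C), against 42.0 and 41.1 RPKM in WT. Its label term was 0.48 (SE 0.14, limma adjusted p = 0.072). Spred2, whose product restrains the activation of RAF by RAS, was at 20.5 and 24.3 RPKM with the KO label and at 16.5 and 14.5 RPKM in WT, with a label term of 0.50 (SE 0.15, limma adjusted p = 0.082). For each of these genes both libraries with the KO label were above both WT libraries, and the largest gap was that at 37 °C. With a minimum mean of 5 RPKM, or with limma-voom on the recovered reads, both passed (adjusted p = 0.037 and 0.041 for Dusp6, 0.035 and 0.041 for Spred2).

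The remaining phosphatase genes and Spred1 differed less by label. Dusp10 encodes a phosphatase of p38 and JNK and was at 4.29 and 3.58 RPKM in libraries labelled Smad4 KO (39.5 and 37 °C), against 6.01 and 4.51 RPKM in WT (label term −0.34, SE 0.13, limma adjusted p = 0.14). It was the other gene, beside Spry1, on the lower side with the KO label and the higher side at 39.5 °C. Spred1, whose product brings neurofibromin to the membrane to switch off RAS, was at 8.21 and 8.53 RPKM with the KO label and 8.13 and 6.74 RPKM in WT. Its WT level at 37 °C stood below the other 3. Its label term was 0.16 (SE 0.14, limma adjusted p = 0.46), and that of Dusp4 was 0.04 (SE 0.11, limma adjusted p = 0.84).

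Among the 9 genes tested, Dusp1 differed most between the genotypes in its temperature ratio. Its product is an early, inducible phosphatase of p38, JNK and ERK. It stood at 6.26 RPKM (311 reads) and 7.38 RPKM (351 reads) in libraries labelled Smad4 KO (39.5 and 37 °C), against 6.28 RPKM (327 reads) and 3.99 RPKM (196 reads) in WT at 39.5 and 37 °C. The WT library at 37 °C was the low one, and at 39.5 °C the label ratio (KO label over WT) was 0.997 (0.851 to 1.17). The ratio of 39.5 to 37 °C was 0.849 (0.726 to 0.992) with the KO label and 1.57 (1.31 to 1.89) in WT, and the first divided by the second was 0.539 (0.427 to 0.681). The label term was 0.37 (SE 0.20, limma adjusted p = 0.25). The whole reads of Dusp1 came out at an exon length of 2697 bases, not at the 3311 bases annotated in GENCODE vM21. There 4 other annotated genes overlap its span, 2 of them on the other strand, Ergic1 and the pseudogene Gm8225.

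Of the 9 genes tested, 2 rose (Dusp2 and Dusp5) and 1 fell (Spry1) with the KO label at an adjusted p under 0.05, beside 13.3% of all 13715 rows. Rising rows made up 8.57% and falling rows 4.7% of all. The error of this fit has 1 residual degree of freedom, which is the difference of the temperature responses, moderated towards a trend over all rows. Nothing in the labels says that the libraries came from separate animals or cultures, so the p-values do not measure a spread between animals. With no minimum on the mean level, 0 of the 10 genes and 0 of all 19555 rows passed, and the adjusted p of Spry1, Dusp2 and Dusp5 was 0.055, 0.067 and 0.073. The median label term was 0.37 over the 9 genes and −0.01 over all rows. The libraries labelled Smad4 KO did not overlap with WT for 7 of the 9 genes (Spry1 and Dusp1 being the exceptions), against 59.5% of all rows.

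For temperature, 0 of the 9 genes passed in the limma fit, in which 0.0219% of all rows did. At an unadjusted p under 0.05 there were 2, Spry1 and Dusp2, against 14.0% of all rows. By the rule of 2-fold on the log2(RPKM + 1) scale, Spry1 alone was called, in both genotypes, beside 1.66% of all rows in the libraries labelled Smad4 KO and 1.98% in WT. The libraries at 39.5 °C did not overlap with those at 37 °C for Spry1 alone, against 26.0% of all rows. By label, the 2-fold rule called Spry1 at 39.5 °C (3.35% of all rows) and Dusp5 at 37 °C (5.84%).

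**Figure D3:**
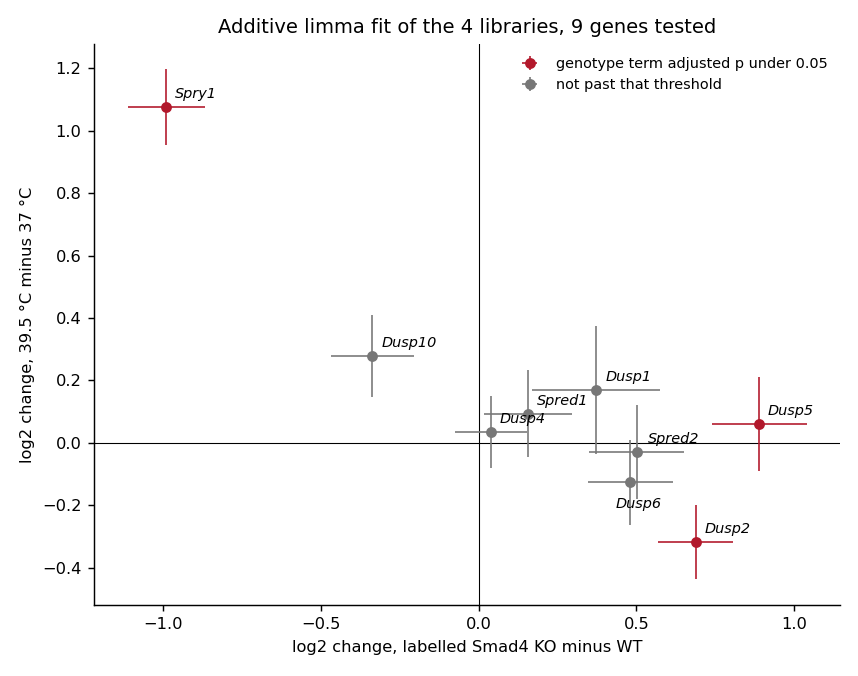
Label term (horizontal axis, labelled Smad4 KO minus WT) and temperature term (vertical axis, 39.5 minus 37 °C) of the additive limma fit on the log2(RPKM + 1) scale for the 9 genes tested, with bars of 1 SE; red marks an adjusted p under 0.05 for the label term. Spry1 stands alone at the upper left (−0.99 and 1.07), Dusp5 and Dusp2 lie on the right.

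The temperature ratio was lower with the KO label than in WT beyond counting error for 5 of the 9 genes tested, Dusp1, Dusp5, Dusp6, Spred1 and Spred2. The share of all rows beyond counting error was not counted. The 5 genes are therefore not set against a background, and counting intervals are narrow for genes with many reads. The interval of the ratio of the 2 temperature ratios, labelled Smad4 KO over WT, included 1 for Dusp2 (0.852 to 1.006), Dusp4 (0.980 to 1.11), Dusp10 (0.7005 to 1.15) and Spry1 (0.849 to 1.03). The difference of the temperature log2 ratios, libraries labelled Smad4 KO minus WT, had a median of −0.29 over the 9 genes and was below 0 for all but Dusp4. Over all rows the median was −0.0028, with 6917 of 13715 below 0. By the 2-fold rule 0 of the 9 genes were called, beside 2.22% of all rows, and with 1 library per group the difference has no test. In ratios of RPKM, Dusp6 had a temperature ratio of 0.819 (0.781 to 0.860) with the KO label and 1.02 (0.965 to 1.08) in WT. Spred1 had 0.962 (0.881 to 1.05) and 1.21 (1.10 to 1.32). The same arithmetic makes the label ratios of these genes higher at 37 than at 39.5 °C, so that the sizes at the 2 temperatures are not separate observations.

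Genes that MAP kinase signalling switches on moved unevenly with the label. Of 19 listed immediate-early and other MAP kinase target genes, 17 had a mean of at least 1 RPKM, and 6 of them rose and 0 fell with the KO label in the limma fit. Rising rows made up 8.57% of all rows. The label term was above 0 for 11 of the 17 targets and below 0 for 6, with a median of 0.56, against −0.01 over all rows. The median log2 ratio of (RPKM + 1), labelled Smad4 KO over WT, was 0.14 at 39.5 °C and 0.58 at 37 °C. Ier3, an early response gene, was at 16.8 and 35.0 RPKM in libraries labelled Smad4 KO (39.5 and 37 °C), against 4.08 and 3.88 RPKM in WT (label term 2.35, SE 0.26, limma adjusted p = 0.015). The ETS factor gene Etv4, a target of ERK, was at 15.2 and 14.0 RPKM with the KO label and at 5.66 and 5.94 RPKM in WT (label term 1.196, SE 0.13, limma adjusted p = 0.015), and its relative Etv5 had a label term of 0.59. Egr1, an early growth response factor gene driven by SRF, was at 11.9 and 20.5 RPKM with the KO label and at 6.999 and 11.0 RPKM in WT, with both libraries at 39.5 °C below that of the same label at 37 °C. Its label term was 0.77 (SE 0.13, limma adjusted p = 0.024), and that of Ier2 was 0.58. Junb, the remaining target that rose, was at 514 and 604 RPKM with the KO label, against 361 and 394 RPKM in WT. Its label term was 0.56 (SE 0.10, limma adjusted p = 0.029).

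The other 11 targets did not pass. Fos, the AP-1 subunit gene, was at 1.39 and 3.76 RPKM with the KO label at 39.5 and 37 °C, against 1.37 and 1.07 RPKM in WT, with a label ratio of 1.01 (0.6997 to 1.47) at 39.5 °C and 3.50 (2.51 to 4.98) at 37 °C. Fosl2, an AP-1 gene, and Ier5 had label ratios of 1.11 and 1.36 at 39.5 °C and of 2.11 and 2.08 at 37 °C. The 6 targets with a label term below 0, listed after their values were seen, were Ets2 (−0.46), Egr2 (−0.45), Nr4a1 (−0.33), Fosl1 (−0.25), Srf (−0.20) and Myc (−0.11), with limma adjusted p from 0.069 for Ets2 to 0.60 for Myc. Nr4a1, an orphan nuclear receptor gene induced by T cell receptor signalling, was at 15.1 and 11.5 RPKM with the KO label, against 21.6 and 13.0 RPKM in WT. By the 2-fold rule 2 of the 17 targets were higher with the KO label at 39.5 °C (2.3% of all rows) and 5 at 37 °C (4.7%). At 39.5 °C 0 were lower (1.05% of all rows), and at 37 °C 0 were lower (1.14%).

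**Figure D4:**
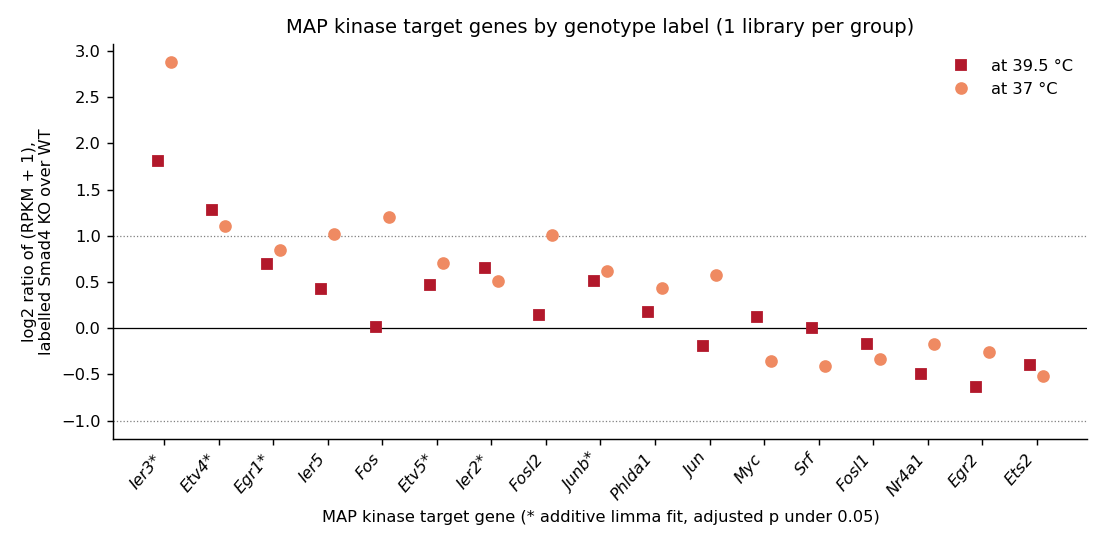
Log2 ratio of (RPKM + 1), labelled Smad4 KO over WT, at 39.5 °C (squares) and 37 °C (circles) for the 17 MAP kinase target genes with a mean of at least 1 RPKM, ordered by their label term in the additive limma fit; an asterisk marks an adjusted p under 0.05, and dotted lines mark 2-fold. Ier3 has the largest log2 ratios, 1.81 at 39.5 °C and 2.88 at 37 °C.

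The kinases above these targets showed no common direction. The RAS, RAF, MEK and ERK list of 18 genes had a median label term of −0.07. In the limma fit 1 of the 18 rose with the KO label and 1 fell. The gene that rose was Rasgrp1, which encodes the RAS activator downstream of the T cell receptor. Rasgrp1 was at 13.3 and 19.6 RPKM in libraries labelled Smad4 KO (39.5 and 37 °C), against 5.09 and 4.73 RPKM in WT (label term 1.54, SE 0.18, limma adjusted p = 0.015). In the p38 and JNK list 17 of 19 genes were measured, and 2 rose and 2 fell. Over all rows 8.57% rose and 4.7% fell. The counts in these short lists were not tested against those shares. Those that rose were Map2k6, a p38 kinase kinase gene (label term 1.005), and Mapk11, which encodes p38β (0.63). Those that fell were Gadd45b, a regulator of the p38 and JNK cascades that TGF-β induces in several cell types (−1.22), and Map3k7, which encodes TAK1 (−0.62). Gadd45g, a relative of Gadd45b, was at 8.43 and 9.76 RPKM with the KO label, against 6.00 and 2.20 RPKM in WT, and did not pass in the fit. Its label ratio was 1.40 (1.12 to 1.77) at 39.5 °C and 4.44 (3.22 to 6.23) at 37 °C. Its temperature ratio was 0.863 (0.703 to 1.06) with the KO label and 2.73 (1.95 to 3.89) in WT.

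Among other DUSP, Sprouty and Spred genes, 9 of 14 listed had a mean of at least 1 RPKM and 0 passed for label or temperature, beside 13.3% of all rows for the label and 0.0219% for temperature. Spred3 had the largest ratio, with 2.78 and 4.69 RPKM in libraries labelled Smad4 KO (39.5 and 37 °C), against 1.54 and 0.786 RPKM in WT. Its label term was 1.12 (SE 0.27, limma adjusted p = 0.054). Spry4 had a mean of 0.321 RPKM, so that Spry1 was the one Sprouty gene above 1 RPKM on average among Spry1, Spry2 and Spry4.

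The nearest profiles were sought among the other 69 measured genes of these lists, as the Euclidean distance between log2(RPKM + 1) values over the 4 libraries, each centred on its mean. Dusp5 lay nearest to Ier5 (distance 0.229) and Map2k6 (0.287). Map2k6 was low, at 2.22 and 2.40 RPKM in libraries labelled Smad4 KO (39.5 and 37 °C) and 0.602 and 0.701 RPKM in WT. The log2(RPKM + 1) scale understates its changes. In ratios of RPKM, Map2k6 had label ratios of 3.70 at 39.5 °C and 3.43 at 37 °C, against 1.61 and 2.20 for Dusp5. Map3k7, among the genes closest to Spry1, lay at a larger distance (0.767), lower with the KO label and higher at 39.5 °C. The distances rest on 4 libraries, 1 per group.

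The genes lie on 9 chromosomes in GENCODE vM21 (GRCm38, which the build named by the submitters, mm10, shares). Spry1 spans chr3:37639947-37644598 on the plus strand, Dusp5 spans chr19:53529109-53542431 on the plus strand, and Dusp2 spans chr2:127336159-127338376 on the plus strand. Dusp6 spans chr10:99263231-99267489 and Dusp4 spans chr8:34807297-34819894, both on the plus strand, and no other annotated gene overlaps these 2 or Dusp2. A gene annotated on the other strand overlaps Dusp5 and another overlaps Dusp10.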

How the data were processed

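RNA-seq libraries of mouse Th17 cultures were compared by genotype label and temperature, with 1 library in each of 4 groups taken from the titles. Each library has 1 table deposited by the authors, in RPKM, with 19555 rows. Trim Galore 0.4.4, edgeR, Subread, featureCounts and Bowtie2 are named, and mm10 as the build, per the submitters' processing notes, which give no settings here. The sources used here name no annotation, filter or strandedness. Multiplied by exon length and library size the values fall on whole numbers: 12053 (91.7%) of the 13144 rows whose name matched 1 GENCODE vM21 gene gave whole reads in every library within 0.01 reads, and with a length of its own for each other row (tolerance 0.003 reads) 19554 rows were recovered. The RPKM values rest on library sizes of 0.955 to 1.06 times the recovered reads.

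Levels were analysed as log2(RPKM + 1), which understates changes of low genes, for rows averaging at least 1 RPKM. Pairs of libraries were compared by a 2-fold rule without a p-value; ratios carry exact 95% intervals. The interval of a ratio of ratios is a normal approximation on the log scale. The label and temperature terms come from limma 3.58.1 in R 4.3.3 (additive model, empirical Bayes with a trend, Benjamini-Hochberg adjustment over 13715 rows). The fit and the read recovery were tested on simulated data. Alternatives were the pseudocount, the minimum mean, 2 scalings, the variance trend, robust empirical Bayes and limma-voom. The genes, lists, tests and alternatives were chosen with earlier results of these data known. Genes of the lists are named where the fit called them or a pair was 2-fold apart, at most 8 per list. Others, Junb among them, were named after their values were seen. Promoter sequences are from RefSeq (GRCm38.p6). The values of 1 gene are not reported here.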

Additional observations from a re-analysis of the deposited data

Results flagged for a closer look

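For 3 genes the temperature ratio lay on opposite sides of 1 in the 2 genotypes, with counting intervals that left out 1 in each. With 1 library per group the difference was not tested. The share of all rows that met this rule was not counted, so the 3 genes are not set against a background. The trait was not particular to them. Among genes of the other lists, Fosl2, Ier5, Jun and Spred3 also met the rule, with the lower ratio in the libraries labelled Smad4 KO. Srf and Map2k2 met it in the opposite direction. The temperature ratio with the KO label divided by that in WT was 0.539 for Dusp1 (0.427 to 0.681), 0.734 for Dusp5 (0.668 to 0.807) and 0.739 for Spred2 (0.669 to 0.816). The ratio of 39.5 to 37 °C for Dusp5 was 0.895 (0.846 to 0.947) in the libraries labelled Smad4 KO and 1.22 (1.13 to 1.32) in WT. For Spred2 it was 0.843 (0.790 to 0.899) with the KO label and 1.14 (1.06 to 1.23) in WT.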

How the results depend on the processing

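The number of genes called for the label (3) became 0 with no minimum mean, 5 with a minimum mean of 5 RPKM and 5 with limma-voom on the recovered reads. The number called for temperature (0) became 1, Spry1, with a minimum mean of 5 RPKM, with median-of-ratios scaling and with limma-voom. The number of MAP kinase targets that rose with the label (6), recounted after seeing the data, was 0 with no minimum mean and 4 to 7 under the other alternatives. The cause was not tested. With a pseudocount of 0.1, with upper quartile scaling, with no variance trend and with robust empirical Bayes both counts kept their value, and so did the counts by the 2-fold rule under each alternative run for them. Over all rows the number called for the label (1820) was 0 with no minimum, 2231 of 8947 rows (24.9%, against 13.3%) with a minimum mean of 5 RPKM and 2914 with limma-voom; for temperature (3) it was 30 with a pseudocount of 0.1, 290 with a minimum mean of 5 RPKM, 83 with median-of-ratios scaling, 9 with robust empirical Bayes, 352 with limma-voom and 0 with no minimum or no variance trend. The label term of Dusp4, 0.04 as reported (adjusted p = 0.84), was −0.0041 with upper quartile scaling (adjusted p = 0.984). Of 80 RPKM ratios of single genes under another scaling, 79 stayed within their counting interval. No paired analysis was possible because each group has 1 library. Leaving out a library leaves no residual degrees of freedom in the additive fit.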
